A study of Bos taurus with 5 samples.

Results

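CYP17A1, INSL3 and CYP19A1 were followed in individual bovine ovarian follicles. These 3 genes stand for androgen and estrogen synthesis and for a peptide hormone of the theca, and they were chosen by name, as the array probe that carries the RefSeq mRNA accession of each gene (CYP17A1 is called CYP17 and CYP19A1 is called CYP19 in the study). Each gene had 1 probe, so 3 genes were taken out of the 1364 that could be named on the array. RNA came from the follicular wall of Japanese Black cows that were pregnant at slaughter, with no treatment and no age given. The wall holds granulosa cells and theca interna, after stroma and theca externa had been dissected away. The 3 largest follicles (F1) and 2 second-largest follicles (F2) were each hybridized to a 1-color array of their own. Cows were kept on 1 ranch, and the phase of the follicular wave at collection was not controlled. By the methods, some cows contributed a follicle to each group, which leaves at least 1 of the 2 F2 from the cow of an F1. Which follicles these are is not given, and the p-values below treat the 5 follicles as independent. They measure the spread between follicles, except those of limma with normexp background correction, as described below.

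Estradiol is made by the theca and the granulosa together. Theca interna cells respond to LH, take cholesterol through pregnenolone to androgens and depend for this on CYP17A1, the hydroxylase and lyase that forms androgen precursors. The androgens pass the basement membrane to the granulosa cells, where CYP19A1, the aromatase, turns them into estrogens under FSH and later LH. INSL3 is a peptide of the relaxin family that theca cells secrete and that acts through the receptor RXFP2, and it is widely used as a theca marker. A dominant follicle is known for high estradiol output, and a subordinate follicle loses it.

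The probes are 60 bases long, and the last 30 bases of each are shown. Capitals mark the sequence of the polyadenylation signal AATAAA or of its common variant ATTAAA, searched on the strand as deposited. The probes were not placed on transcripts, and whether a match acts as a signal was not tested.
CYP17A1: gccctggcagtgatgtgcATTAAAcagttt
INSL3: cttcttgttgtctcctcaatagtaAATAAA
CYP19A1: tagataaggtaatctggtcctcaaacccag
Over all 10163 probes, 7.36% held AATAAA and 2.24% held ATTAAA in this window. The probes of CYP17A1 and INSL3 each held 1 of these sequences and the CYP19A1 probe held none. No other probe on the array shared 16 bases in a row with any of the 3.

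Signals are given as the processed spot intensity divided by the median of the 100 GAPDH spots of the same array, and a level is compared only between follicles for 1 probe, not between probes. Between 5465 and 5855 of the 10163 probes per array were well above background, a flag of the scanner software. Of these, 30 to 48 per array were saturated, which means that the spot reached the upper limit of the scanner. The GAPDH medians ranged from 869 to 1411 intensity units. The labelled tissue was checked on marker genes. All 6 theca interna genes on a list of markers had a probe under the accessions used for naming, as did 7 of 9 granulosa genes. Each of these 13 entries was well above background in all 3 F1. In the F2, LHCGR, FSHR and INHBB were so on 0 of 2 arrays, CYP19A1 on 1 of 2 and the rest on both. The check is therefore complete for the F1 only.

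CYP17A1 was clearly lower in the second-largest follicles. The largest follicles (F1 replicates 1 to 3) gave signals of 1.68, 2.56 and 3.11, whereas the second-largest (F2 replicates 1 and 2) gave 0.146 and 0.163. The lowest F1 was 10.3 times the highest F2, so the groups did not overlap, and all 5 spots were well above background with none saturated. The F1 averaged 2.45 ± 0.721 (SD, n = 3) and the F2 averaged 0.154 ± 0.0121 (SD, n = 2). The log2 signals of F1 minus F2 differed by 3.95, or 15.4-fold between geometric means (standard error 0.35, limma adjusted p = 0.00132). Only 18 of the 4861 probes that were well above background on all 5 arrays had a larger difference toward the F1. Leaving out F2 replicate 1 left a log2 difference of 3.87 and a limma adjusted p of 0.0651, with 1 F2 in the fit and its spread taken from the F1.

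INSL3, the second theca gene, was also higher in every F1, and 2 of its 3 F1 spots were at the limit of the scanner. F1 replicates 1 to 3 read 39.2, 78.2 and 44.7, against 5.49 and 3.67 for F2 replicates 1 and 2. The groups did not overlap, and the lowest F1 was 7.13 times the highest F2. In F1 replicate 2, 48 of 49 pixels were saturated, and in F1 replicate 3 all 61 of 61 were, while F1 replicate 1 had 0 of 63. The raw means of the saturated spots were almost equal, at 65366 and 65371 intensity units. Their ratio to GAPDH therefore differs with the GAPDH medians of 869 and 1411, and both values are lower bounds. F1 replicate 2 thus lay above F1 replicate 1. F1 replicate 3 also read above F1 replicate 1, but by only 0.66 times the sum of the errors given by the scanner software. Its order against F1 replicate 2 is not settled. The F1 averaged 54.0 ± 21.1 (SD, n = 3) and the F2 averaged 4.58 ± 1.29 (SD, n = 2), with geometric means apart by at least 11.5-fold. The log2 difference was 3.52 (standard error 0.40, limma adjusted p = 0.00394). In the authors' deposited values, where the 2 saturated spots are empty, the fit used F1 replicate 1 alone against both F2 and gave 3.13 (standard error 0.47, limma adjusted p = 0.00749), with the F1 follicle assumed to vary like the F2. The call rested on both F2, with limma adjusted p of 0.0843 without F2 replicate 1 (log2 difference 3.81) and 0.0667 without F2 replicate 2 (log2 difference 3.23). It was also lost when weak probes were not filtered out (limma adjusted p = 0.0622).

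CYP19A1, the aromatase of the granulosa, showed by far the widest gap of the 3 genes. The largest follicles gave signals of 18.5, 5.50 and 12.6, in the order of their replicate numbers. In the F2 the signal was 0.00650 in replicate 1 and 0.0279 in replicate 2, and only the second of these was well above background. Every F1 was high and both F2 were near the detection limit, with the lowest F1 197 times the highest F2. The F2 values carry large errors in the scanner's own error model. The processed intensity was 8.16 ± 10.8 units in F2 replicate 1 and 27.8 ± 16.7 units in F2 replicate 2, against at least 4775 ± 478 units in the F1. The F1 averaged 12.2 ± 6.52 (SD, n = 3), and the F2 averaged 0.0172 ± 0.0151 (SD, n = 2). With the weak F2 spot raised to the lowest signal that was well above background on its array, the F1 were 541-fold higher. This is no firm lower bound, since the other F2 spot, kept as measured, was also near the detection limit. The log2 difference as measured was 9.66 (standard error 0.75, limma adjusted p = 0.000801). Leaving out F1 replicates 1, 2 and 3 in turn gave 9.27, 10.2 and 9.55. It was 6.31 with normexp background correction, 8.61 without F2 replicate 1 (limma adjusted p = 0.0402) and 10.7 without F2 replicate 2 (limma adjusted p = 0.0124).

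**Figure D1:**
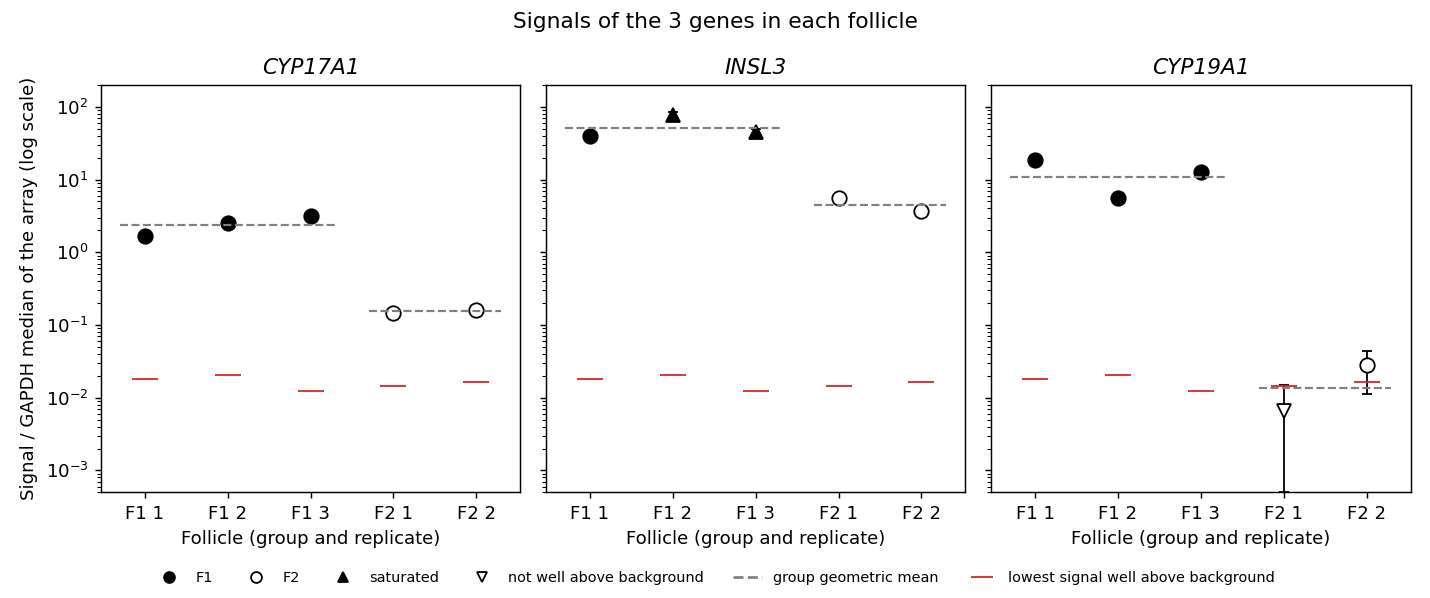
Signal of CYP17A1, INSL3 and CYP19A1 over the GAPDH median of the array (log scale) in each of 3 F1 (filled) and 2 F2 (open), with the scanner's error as the error bar, which reaches below the axis where it exceeds the signal. Upward triangles are saturated spots, the downward triangle a spot that was not well above background, dashed lines the geometric mean of a group and red dashes the lowest signal well above background on the array. Every F1 lies above both F2 in all 3 panels, INSL3 is saturated in F1 replicates 2 and 3, and the F2 signals of CYP19A1 lie near the detection limit. Heights are not comparable between panels.

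All 3 genes passed the test in the F1 direction. Among the 5528 probes tested, 6.39% passed with higher values in the F1, and 33.4% were higher in every F1 than in both F2. CYP17A1 and CYP19A1 were listed by the study as differing between these same follicles, so their direction is not independent evidence, and the choice of INSL3 was made with results of these data known. The median difference of all tested probes was 0.27 (log2) after division by GAPDH and 0.06 after scaling to the 75th percentile of each array. Relative to that median the differences were 3.67 for CYP17A1, at least 3.25 for INSL3 and 9.39 for CYP19A1.

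The theca and granulosa genes were next set against each other within each follicle, where array scaling cancels. The log2 signal of CYP17A1 was subtracted from that of CYP19A1 in the same follicle, and the result was centred on the mean of the 5 follicles, since the probes have no common scale. This gave 3.55, 1.19 and 2.11 for the 3 F1 in turn, and -4.40 and -2.46 for the F2. As measured, the gap between F1 and F2 was 5.71 wider on the log2 scale for aromatase than for CYP17A1. That size uses the weak CYP19A1 spot of F2 replicate 1, and it was 5.13 with weak signals raised to the detection limit and 3.08 with normexp background correction (exact permutation p = 0.1 for each). An exact permutation test over the 10 splits of the follicles gave p = 0.1, the smallest p that 3 against 2 follicles allow. For CYP19A1 against INSL3 the centred values of the F1 were 3.62, 0.87 and 2.88 and those of the F2 were -5.02 and -2.34, again without overlap. The difference F1 minus F2 was 6.14 as measured (exact permutation p = 0.1), 5.56 with weak signals raised and 2.76 with normexp (exact permutation p = 0.2). It has no settled size, since CYP19A1 is below the detection limit in 1 F2 and INSL3 is a lower bound in 2 F1.

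The 2 theca genes could not be separated in this way. INSL3 minus CYP17A1, centred likewise, came to -0.07, 0.32 and -0.76 for the F1 and to 0.63 and -0.12 for the F2. The groups overlapped, and the difference F1 minus F2 was -0.42 (exact permutation p = 0.5), which does not show that the genes act alike. Because 2 of the F1 values are lower bounds for INSL3, the sign of this small difference is not settled, and it was 0.32 with normexp background correction. These 3 within-follicle comparisons form a single family, and none can pass an adjusted threshold at this number of follicles.

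**Figure D2:**
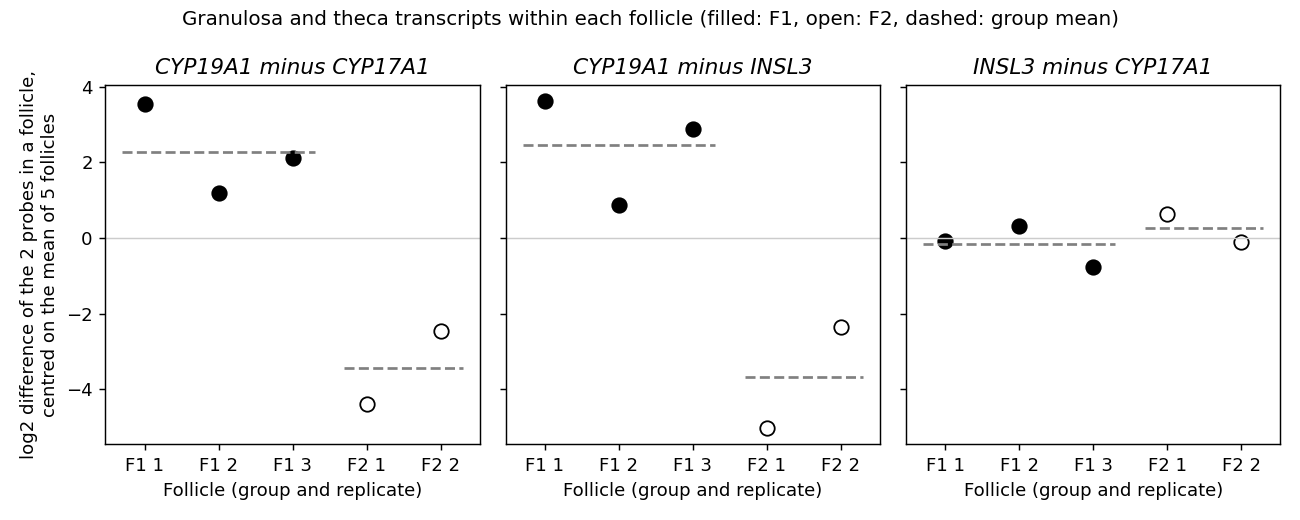
Log2 difference of 2 probes in the same follicle, centred on the mean of the 5 follicles, for CYP19A1 minus CYP17A1, CYP19A1 minus INSL3 and INSL3 minus CYP17A1. Filled points are the 3 F1, open points the 2 F2 and dashed lines the group means. The F1 lie above the F2 in the first 2 panels, by 5.71 and 6.14 between group means, and the groups overlap in the last panel.

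The F1 differed among themselves in both steroidogenic genes. These values are set beside the scanner's error, which covers 1 hybridization and neither labelling nor repeat arrays. CYP19A1 was highest in F1 replicate 1 and lowest in F1 replicate 2, a 3.37-fold range, and neighbouring values were apart by 1.89 and 3.94 times the sum of their scanner errors. CYP17A1 ran otherwise, with its lowest F1 signal in replicate 1 and its highest in replicate 3, a 1.85-fold range. The 2 higher values of CYP17A1 were within the sum of their scanner errors (0.97 times), whereas F1 replicates 1 and 2 were apart by 2.07 times that sum. The order of the F1 was the same for both genes with scaling to the 75th percentile, quantile normalization and normexp background correction. F1 replicate 1 therefore held the highest aromatase signal together with the lowest CYP17A1 signal of the F1. In the F2, CYP17A1 differed by 1.12-fold, less than the sum of the scanner errors, and the order of the 2 follicles turned under quantile normalization and under the 75th percentile. INSL3 was 1.5-fold higher in F2 replicate 1 than in F2 replicate 2, a gap of 1.83 against a sum of errors of 0.916. The 2 F2 values of CYP19A1 were apart by 0.84 times that sum.

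The steps that lead to and support androgen synthesis did not all follow CYP17A1. A list of 12 genes from cholesterol import to estradiol was written with earlier results of these data known. By the accessions on the array, 8 of these were found, of which 4 rose in the F1, 0 rose in the F2 and 4 did not pass. Over all tested probes, 6.39% were called toward the F1. The median log2 difference of the list was 1.86, against 0.27 for all tested probes. Without CYP17A1 and CYP19A1 it was 0.96, with 2 of 6 genes called. These 2 are electron donors or cofactors of the steroid enzymes. FDXR, the reductase that feeds electrons to the mitochondrial enzymes, read 19.7, 13.0 and 18.1 in the F1 against 3.08 and 2.01 (log2 difference 2.74, standard error 0.34, limma adjusted p = 0.00514). CYB5A, a cofactor of the lyase step of CYP17A1, read 0.555, 0.578 and 0.287 against 0.0380 and 0.0679 (log2 difference 3.15, standard error 0.44, limma adjusted p = 0.00819). For both, the groups did not overlap. Both calls needed each F2. On dropping F2 replicate 1 or 2, limma adjusted p became 0.0634 or 0.0636 for FDXR and 0.159 or 0.0605 for CYB5A. Without F2 replicate 1 the list had 1 call and without F2 replicate 2 it had 2, and with no filter on weak probes it had 2.

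The early steps showed a different pattern. STAR, which brings cholesterol into mitochondria, read 5.56, 3.14 and 5.33 in the F1 against 16.1 and 9.91 in the second-largest follicles. All F1 were lower than both F2, opposite to CYP17A1, with a log2 difference of -1.48 (standard error 0.39, limma adjusted p = 0.0593). This passed the threshold in 7 of 16 alternatives, among them the replicate block (limma adjusted p = 0.0423). CYP11A1, the side-chain cleavage enzyme, read 13.0, 12.5 and 16.5 against 8.64 and 5.86, without overlap (log2 difference 0.97, limma adjusted p = 0.0993). FDX1, the ferredoxin of the same electron chain as FDXR, had a log2 difference of 0.95 (limma adjusted p = 0.104). HSD3B1, which converts pregnenolone to progesterone and its androgen analogues, read 9.84, 8.77 and 9.41 in the F1 against 2.94 and 10.5. The F2 values lay on either side of the F1, and the log2 difference of 0.75 (limma adjusted p = 0.388) became -0.17 without F2 replicate 1. In F2 replicate 2, HSD3B1 was thus at the level of the F1 while CYP17A1 was at its F2 level. HSD17B1, POR, HSD17B7 and HSD17B12 had no probe under the accessions used for naming and are not analysed here, so the count of the list is incomplete. The study itself measured HSD17B1 on these arrays and listed it as high in these same F1.

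**Figure D3:**
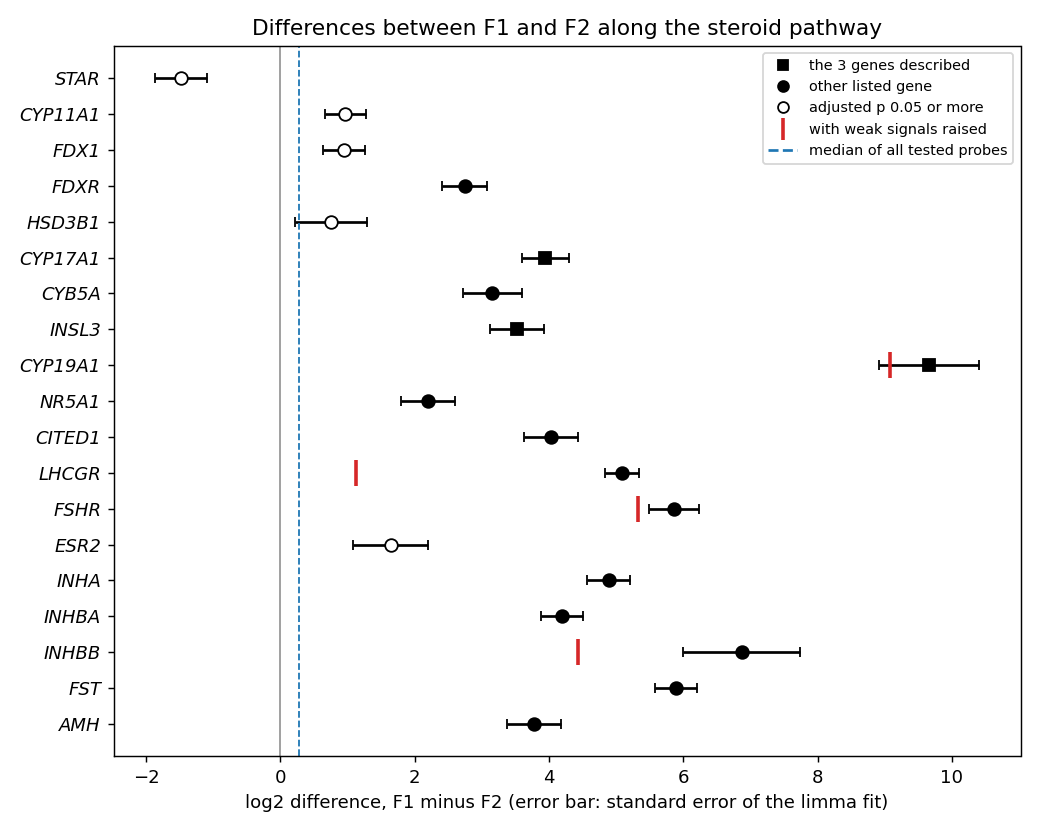
Log2 difference F1 minus F2 with the standard error of the limma fit, for CYP17A1, INSL3 and CYP19A1 (squares) and 16 other listed genes (circles). Open symbols have an adjusted p of 0.05 or more, red ticks give the difference with weak F2 signals raised to the detection limit of the array, and the dashed line is the median of all tested probes (0.27). CYP19A1 lies far to the right, CYP17A1 and INSL3 near 4, and STAR to the left of 0.

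The cell type lists were counted next. Over all tested probes, 6.39% were called toward the F1 and 5.08% toward the F2. Of the 6 theca interna genes, 3 were called toward the F1 and 0 toward the F2. Apart from CYP17A1 and INSL3 the call was LHCGR, which passed the filter only through the F1. The study also describes a rise of LH receptor in granulosa cells of a dominant follicle, so LHCGR does not mark the theca alone. Among theca probes well above background on all arrays, 2 of 5 were called toward the F1 and 1, STAR, toward the F2. Of the 7 granulosa genes with a probe, 7 were called higher in the F1, although CYP19A1, FSHR and INHBB passed the filter only through the F1. Of the 4 granulosa genes well above background on all arrays, 4 were called. These 4 (AMH, INHA, INHBA and FST), CYP19A1 and FSHR were listed by the study as high in these same F1. Their direction is therefore not independent evidence. With either F2 left out the theca list lost calls, and the granulosa list lost a call without F2 replicate 1. With 1 F2 left in the fit, fewer of all probes are called too. Without F2 replicates 1 and 2 the median log2 difference was 2.53 and 2.45 for the theca list. It was 5.47 and 5.35 for the granulosa list. In whole follicle walls, fewer cells of a type and less RNA per cell cannot be told apart. The log2 differences of CYP17A1, STAR and HSD3B1, all on the theca list, were 3.95, -1.48 and 0.75. Of these, only CYP17A1 was called among all tested probes, and why they were unequal was not tested.

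The receptors that drive the 2 cell types were near or below the detection limit in the F2. LHCGR, the LH receptor, was weak, with 0.0329, 0.0335 and 0.0352 in the F1, and neither F2 spot was well above background. The F1 exceeded the F2 at least 2.18-fold (limma adjusted p = 0.000138). This p depends on the raised F2 values, which are equal, and it was 0.289 in limma with normexp background correction (log2 difference 0.56). In the limma fit with normexp every listed gene had the same standard error, 0.32. Its p-values therefore do not measure the spread of a single gene. FSHR, the FSH receptor of granulosa cells, read 0.543, 0.827 and 0.545 in the F1, and both F2 spots were too weak to be well above background. With these raised to the detection limit, the F1 were 40.3-fold higher. The log2 difference was 5.86 as measured (limma adjusted p = 0.000331) and 2.61 with normexp background correction. ESR2, the estrogen receptor of granulosa cells, read 0.0703, 0.147 and 0.198 against 0.0269 and 0.0618 (log2 difference 1.64, limma adjusted p = 0.113). ESR1 was not well above background on any array. LHCGR and FSHR passed the filter only through the F1, where they are high, so their calls are no count in support of a direction for receptors. RXFP1, RXFP2, PGR, INSR and IGF1R are not analysed here, so the receptor for INSL3 has no value.

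Of 4 listed transcription factors with a probe, 2 were called higher in the F1, against 6.39% of all tested probes. With no filter on weak probes 0 of 4 were called, where 101 of all 10163 probes were called toward the F1. The study listed CITED1 as high in these same F1, so its direction is not independent evidence. NR5A1, the steroidogenic factor that activates both CYP17A1 and CYP19A1, read 0.154, 0.138 and 0.111 in the F1 against 0.0196 and 0.0427 (log2 difference 2.20, standard error 0.40, limma adjusted p = 0.0205). Dropping F1 replicate 1 or F2 replicate 1 raised its limma adjusted p to 0.0657 or 0.144. CITED1, a transcriptional coactivator, read 15.0, 6.71 and 8.39 against 0.542 and 0.616 (log2 difference 4.03, limma adjusted p = 0.00243). Dropping either F2 raised its limma adjusted p to 0.0944 or 0.0516. NR2F2, an orphan receptor of theca cells, read 0.155, 0.312 and 0.222 in the F1 against 0.326 and 0.634, opposite to CYP17A1 (log2 difference -1.04, limma adjusted p = 0.174).

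Among paracrine regulators of theca androgen output, 5 of 5 tested genes were called higher in the F1, against 6.39% of all tested probes. With all 5 arrays required to be well above background, 4 of 4 were called, against 396 of all 4861 probes of this kind. All 5 genes are also on the granulosa list, so this is not a separate result. The study listed INHA, INHBA, FST and AMH as high in these same F1, so their direction is not independent evidence. INHA and INHBA, the subunits of inhibin A, were saturated in all 3 F1 and were at least 29.6-fold and 18.3-fold higher there (limma adjusted p = 0.000372 and 0.000684). FST, the activin-binding protein, was saturated in 2 of 3 F1 and was at least 59.2-fold higher (limma adjusted p = 0.000153). INHBB was too weak in both F2 to be well above background and passed the filter only through the F1. With the F2 raised to the detection limit, it was 21.6-fold higher in the F1. Its log2 difference was 6.87 as measured (limma adjusted p = 0.00558) and 2.20 with normexp background correction. AMH had a log2 difference of 3.77 (standard error 0.40, limma adjusted p = 0.00329), close to that of CYP17A1, and a limma adjusted p of 0.0894 without F2 replicate 1.

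Few markers of other cells were called, and those that were had higher values in the F2. Toward the F2, 1 of 4 tested endothelial genes, 2 of 2 leukocyte genes and 1 of 3 genes of stroma and theca externa were called, against a background of 5.08% of probes. TEK, PECAM1 and TIE1 of the endothelial list and DCN and COL1A2 of the stromal list were not called, and TIE1 (log2 difference 0.22) and COL1A2 (0.16) had the opposite sign. SELP, an adhesion receptor of endothelium and platelets, had a log2 difference of -3.82 (limma adjusted p = 0.00329). The study listed SELP as high in these same F2, so its direction is not independent evidence. CD14, a monocyte receptor, had -1.66 (limma adjusted p = 0.0208), and -0.65 with normexp, where limma gave an adjusted p of 0.188. LUM, a stromal proteoglycan, had -1.61 (limma adjusted p = 0.0370). CD3E, of T cells, was too weak in all F1 to be well above background, and the F2 exceeded them at least 1.71-fold (limma adjusted p = 0.00526, and 0.170 with weak signals raised to the detection limit). CD3E could pass the filter through the F2 alone, so its call is no count in support of a direction. With all arrays required to be well above background, 1 leukocyte gene was tested and called, against 270 of 4861 probes called toward the F2. With normexp, 0 of 2 were called, against 294 of 5528 probes called toward the F2. Without F2 replicates 1 and 2 the limma adjusted p was 0.0888 and 0.0636 for SELP, 0.184 and 0.101 for CD14, 0.206 and 0.183 for LUM and 0.160 and 0.0763 for CD3E. For LUM it was also 0.112 and 0.0809 without F1 replicates 1 and 3, and for CD14 0.0508 without F1 replicate 2. The summed signal ranged from 0.157 to 0.250 over the F1 and from 0.763 to 1.11 over the F2 for the 6 endothelial genes with a probe, of which SELP alone made up 0.636 and 0.864 in the F2. It was 0.0351 to 0.0488 and 0.137 to 0.174 for the 2 leukocyte genes, and 5.63 to 9.34 and 9.79 to 16.8 for the 3 stromal genes, most of it DCN, whose groups overlapped. The endothelial genes CDH5 and SELE and the erythrocyte gene HBB were not well above background on any array, nor were the oocyte genes GDF9 and ZP4. Of the other oocyte genes, ZP3 was well above background in all 3 F1 and both F2, and ZP2 in 1 F1 and 1 F2. ZP3 was not called (log2 difference -0.10, limma adjusted p = 0.875). The part of these cells in the results for CYP17A1, INSL3 and CYP19A1 was not tested.

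Finally, each of the 3 genes was compared in profile with 733 named genes that were well above background on all 5 arrays. Likeness was the root mean square distance of log2 profiles over the 5 follicles, each centred on its own mean, and it is a description of these 5 arrays. The closest profile to CYP17A1 was that of AMH, a granulosa hormone, at a distance of 0.33, followed by SCD, a fatty acid desaturase, at 0.35. INHBA at 0.47, SERPINF2 at 0.50 and UPK1B at 0.54 came next, against a median distance of 1.89 over all 733. INSL3 lay at 0.47 from CYP17A1. The gap between F1 and F2 dominates these profiles, so genes with gaps of like size come out close, whether of theca or granulosa. INSL3 is a lower bound in 2 F1, so its distances are not settled.

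The genes closest to INSL3 were INHBA at 0.45, ST3GAL4 at 0.53, GPX1 at 0.55, CYB5A at 0.62 and SCD at 0.64. INHBA and ST3GAL4 were saturated in all 3 F1, as INSL3 was in 2, and saturated spots share the limit of the scanner. GPX1, an antioxidant enzyme with no saturated spot, read 25.1, 19.7 and 16.5 against 1.78 and 2.38. FSHR and INHBB, too weak in the F2, were not among the genes compared. For CYP19A1 the smallest distances were 1.98 for FST, 1.99 for TRIB2, 2.50 for RGN, 2.56 for INHA and 2.61 for SERPINF2, and CYP17A1 lay at 2.96 and INSL3 at 3.25. Of these, RGN, a calcium-binding protein, shared the order of CYP19A1 among the F1, with a highest signal of 1.55 in replicate 1 and a lowest of 0.250 in replicate 2, against 0.0291 and 0.0209 in the second-largest follicles. FST and TRIB2 were saturated in 2 and 3 F1.

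**Figure D4:**
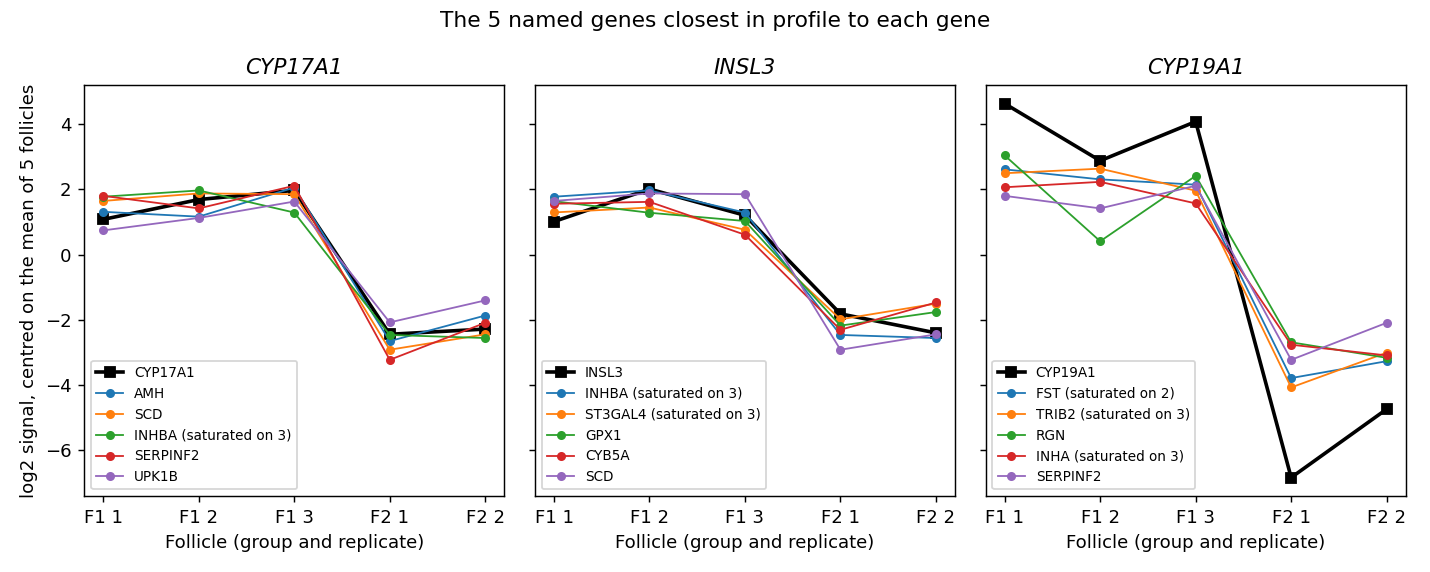
Log2 signal over the 5 follicles, centred on the mean of each gene, for CYP17A1, INSL3 and CYP19A1 (black squares) and the 5 named genes closest to each (coloured circles, with the number of arrays on which a spot was saturated). Lines only connect the points of a gene and imply no order of follicles. The genes around CYP17A1 and INSL3, at distances of 0.33 to 0.64, share mainly the gap between F1 and F2. Their order among the F1 can differ. AMH read lowest in F1 replicate 2 and CYP17A1 in F1 replicate 1. GPX1 read higher in F1 replicate 1 than in F1 replicate 2, and INSL3 the other way. The genes around CYP19A1 have a smaller gap between F1 and F2 than CYP19A1 has.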

How the data were processed

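The authors hybridized Cy3-labelled RNA of 5 follicles to a custom Agilent array and extracted the spots with Feature Extraction (version 9.5.3.1 per the file headers). In the deposited scanner files each spot has a processed intensity with background already subtracted, an error, raw mean and local background intensities, pixel counts and flags. The authors also deposited a table of ratio values. On all 27483 values present in that table it equalled the processed signal over the GAPDH median within 0.00051.

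Here, signals were divided by the GAPDH median, as in the methods, with a floor of 0.001, and put on the log2 scale. Of 10163 probes, 5528 passed the filter (well above background in all follicles of F1, of F2 or of both) and were tested for F1 against F2 with limma 3.58.1 in R 4.3.3 (Benjamini-Hochberg, threshold 0.05). Saturated spots were kept. Other steps used Python 3.11.15, and the fit was tested on simulated data. Probes were named through RefSeq accessions (1364 of 1415 matched, assembly ARS-UCD2.0, names only). Genes named in the text are the 3 genes, members of written lists and the 5 closest profiles of each gene. Members and lists were chosen with earlier results of these data known. A gene called here has limma adjusted p under 0.05. The methods give neither the floor of 0.001 nor a test on the arrays. Alternatives were other normalizations, background corrections, floors and filters, a replicate block, an intensity trend and each follicle left out. The number of arrays limits precision, and groups of 3 and 2 follicles give no exact permutation p under 0.1.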

Additional observations from a re-analysis of the deposited data

How the results depend on the processing

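CYP17A1, INSL3 and CYP19A1 were higher in the F1 under all alternatives in which they were fitted, 16, 15 and 15 of them. INSL3 could not be fitted without saturated probes and CYP19A1 not where all 5 arrays had to be well above background. CYP17A1 lost its call without F2 replicate 1, with log2 differences of 3.75 to 4.20 when follicles were left out in turn, and INSL3 without either F2 (range 3.22 to 3.81) and with no filter on weak probes (3.52). CYP19A1 kept its call in all 15 (8.61 to 10.7 with follicles left out), but its size depends on weak F2 signals and was 9.35 with a floor of 0.01 and 6.31 with normexp. The 634 probes called became 214 with no filter and 160 to 550 with a follicle left out (344 without F1 replicate 1, 160 and 200 without F2 replicates 1 and 2). In the first of these more probes are tested and in the others fewer follicles enter. With the replicate block 578 probes were called, and the differences were 3.75 for CYP17A1, 3.62 for INSL3 and 9.55 for CYP19A1, all called. F1 replicate 3 is alone in its block, so these differences equal those without it and are no separate check. The labels do not say that numbers pair follicles, and deviations of follicles with the same number correlated at 0.039 and 0.13. With only 2 F2 their deviations mirror each other, so these correlations cannot test pairing. The block ended the call of LUM (limma adjusted p = 0.0554). Within follicles, with one left out, CYP19A1 minus CYP17A1 lay between 4.74 and 6.68 (3.08 with normexp), CYP19A1 minus INSL3 between 4.80 and 7.48 (2.76) and INSL3 minus CYP17A1 between -0.80 and -0.05. The last became 0.32 with normexp, and HSD3B1 became -0.17 without F2 replicate 1 (up to 1.67 without others). The cause was not tested.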
